A study of Mus musculus with 3 samples.

Results

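Parental OP9 cells were set against 2 lines of OP9 cells that carry green fluorescent protein (GFP), and the genes that stood apart in the parental line from both of the others were described by function. A gene was taken when an array feature for it was at least 2-fold higher, or at least 2-fold lower, on the OP9 array than on each of the other arrays. This held for 723 of the 11359 named genes compared. Of these, 458 were higher in OP9, which is 4.03% of the genes compared, and 265 were lower, which is 2.33%. Over all array features, with or without a gene name, 620 of 15581 (3.98%) were higher and 343 (2.20%) were lower. By the same measure OP9-GFP stood apart from both other lines in 200 genes and OP9-DL in 314.

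OP9 is a stromal cell line from the calvaria, the skull cap, of a newborn B6C3Fe-a/a-Csf1op/Csf1op mouse, and laboratories grow blood progenitors on it. The Csf1op mutation disables macrophage colony-stimulating factor, and all 3 lines share this genotype and origin. The first line was OP9 with nothing added, the second expressed GFP (OP9-GFP), and the last expressed GFP and also Delta-like 1, a ligand of Notch receptors (OP9-DL). All were kept in alpha-MEM with 20% fetal bovine serum and had no treatment. The sources used here do not say how the added genes were brought in or whether a line is 1 clone.

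Each line had 1 array, so there was no replicate check, no error and no test, and a difference between lines cannot be told apart from a difference between cultures, extractions or arrays. In RNA of whole cultures, more cells that express a gene and more transcript per cell cannot be told apart. Both comparisons use the same OP9 array, so a feature that read high or low on that array alone enters both. Intensities are the authors' scaled values, with a median of 20 on each array, and they are not compared between genes. Folds are ratios of these intensities, and the smaller of a gene's 2 folds is called the nearer fold.

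Interferons are secreted when a cell senses foreign or misplaced nucleic acid. They signal through JAK kinases to STAT and IRF transcription factors, which switch on effector genes that block viruses and present antigen. Stromal and fibroblast cells also carry a second well-known programme, in which spread, tense cells activate YAP, TGF-beta and serum response factor and express contractile smooth muscle genes. Both groups have many members on the array.

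The stromal label was checked first. Of the stromal identity list, 12 of 17 genes on the array were bright enough to compare, and 10 of these were not apart. Pdgfra was higher in OP9, at 800.6 on OP9, 166.1 on OP9-GFP and 127.1 on OP9-DL. Col1a1 was lower, at 269.3, 712.9 and 557.0. Vim, the mesenchymal intermediate filament, read 18420.0 on OP9, 25328.1 on OP9-GFP and 32110.4 on OP9-DL, and Cxcl12, the chemokine that holds blood progenitors, read 3720.4, 4411.3 and 1997.4. Thy1, Eng, Nt5e and Cd44 of the same list were below the brightness limit. Of the markers of other cell types, 16 of 35 blood cell genes on the array, 7 of 17 mast cell, 8 of 20 endothelial and 5 of 12 epithelial genes were bright enough to compare. Intensities were summed over all genes of these lists with a value on all 3 arrays, dim ones included. These were 32 blood cell, 14 mast cell, 14 endothelial and 10 epithelial genes. The sums on OP9, OP9-GFP and OP9-DL were 431.8, 340.6 and 473.7 for blood cells, 158.9, 166.0 and 169.7 for endothelium, and 261.4, 298.3 and 328.3 for epithelium. Mast cell markers summed to 192.4, 163.2 and 967.6, with Tpsab1, a tryptase, at 20.6, 9.0 and 818.9. Aif1 of the blood cell list was the only marker of these 4 lists apart in OP9, higher at 27.9, 13.8 and 12.7, which fell under 2-fold with quantile or median scaling. Ptprc, the pan-leukocyte antigen, read 2.1, 2.5 and 2.8, Epcam of epithelium read 2.4, 4.7 and 4.1, and Pecam1 of endothelium had a value on OP9-DL alone, at 2.0, while epithelial Cldn7 read 30.9, 29.3 and 28.7. The part of other cells in the results below was not tested. Dll1, which encodes Delta-like 1, read 14.0 on OP9, 20.5 on OP9-GFP and 333.3 on OP9-DL, in the order of the labels. Csf1 read 1049.9, 1206.7 and 926.1, a transcript level that says nothing of the protein.

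**Figure D1:**
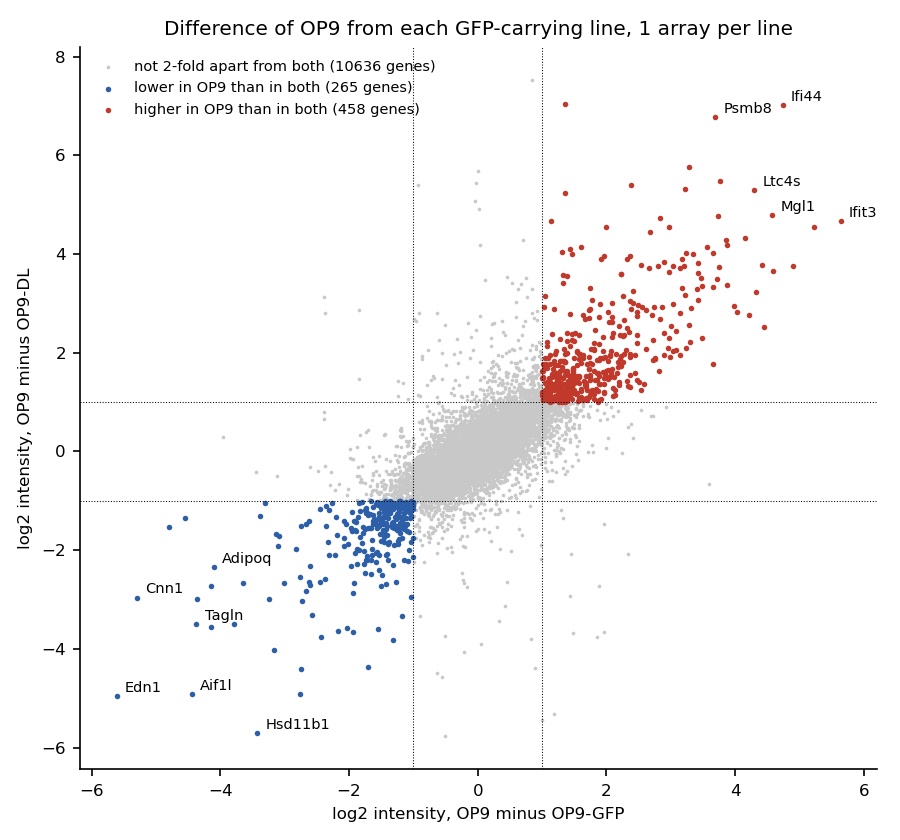
Each point is 1 gene; the horizontal axis is the log2 intensity of OP9 minus OP9-GFP, the vertical axis that of OP9 minus OP9-DL, and dotted lines mark 2-fold. Both axes hold the same OP9 array, so some spread along the rising diagonal comes from the shared values. The 458 red genes lie at upper right with Ifi44 and Ifit3 far out, and the 265 blue genes at lower left with Edn1 and Hsd11b1 far out.

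Members varied widely in size. Among the higher genes 102 had a nearer fold of at least 4, 37 of at least 8 and 6 of at least 16, and among the lower genes the numbers were 30, 7 and 2. The median nearer fold over features was 2.63 for the higher ones and 2.4 for the lower ones. OP9-GFP and OP9-DL were within 2-fold of each other in 86.5% of the higher features and 89.2% of the lower ones, against 95% of all features compared. Dimness was uneven: 38 of the 620 higher features were under the intensity limit of 6.13 on both GFP-carrying arrays, and 59 of the 343 lower ones were under it on OP9. Genes named below with such dim features include Mx2, Gbp4 and Cdkn1c on the higher side. On the lower side they include Aif1l, Fgfr2, Tead2 and Igf2. The folds of such genes are uncertain in size.

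Genes of the interferon response led the higher side. The lists used here were chosen with earlier results of these data known, so their shares describe these data and are no independent support. The same holds for the lists of the later paragraphs. The 6 lists (RNA and DNA sensors, interferon signalling, antiviral effectors, ISG15, TRIM and PARP modifiers, interferon-inducible GTPases, and antigen presentation) together held 109 compared genes, of which 62 (56.9%) were higher in OP9 than in both other lines and 0 were lower, beside 4.03% and 2.33% of all genes. Their median log2 difference was 1.40 against OP9-GFP and 1.35 against OP9-DL, beside -0.02 and 0.00 over all genes. They made up 8 of the 10 genes highest by the nearer fold, 17 of the first 25 and 40 of the first 100. The nearer folds of the 62 ran from 2.02 to 26.8 with a median of 5.02. In 49 of the 62 the GFP-carrying lines were within 2-fold of each other, and OP9-DL was the higher of them in 31 and the lower in 31.

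Sensors of viral nucleic acid were higher in 6 of 16 genes. Ifih1, which encodes the long double-stranded RNA sensor MDA5, had an intensity of 267.5 on OP9, 22.5 on OP9-GFP and 15.2 on OP9-DL, 11.9-fold and 17.6-fold higher. Dhx58, a regulator of the same helicase family, read 251.3, 18.7 and 18.8, and Ddx58, which encodes RIG-I, read 309.1, 66.7 and 84.0. In each of these the OP9 array was high and the GFP-carrying arrays were close together. Ifi205, a member of the HIN-200 family of DNA-binding proteins, was higher by both of its features, one of them at 78.0, 17.0 and 13.3. The adaptors and kinases downstream were level: Mavs read 97.1, 86.3 and 92.3, and Tbk1 read 173.1, 172.7 and 212.1. Ikbke, a kinase related to Tbk1, was higher at 53.7, 16.8 and 20.6.

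Interferon genes and receptors themselves were not apart, and transcription factors were. Ifnb1, interferon beta, lay near the limit of brightness at 6.4 on OP9, 6.4 on OP9-GFP and 6.3 on OP9-DL. The receptor chains read 53.5, 45.6 and 38.9 for Ifnar1 and 46.8, 42.6 and 31.9 for Ifnar2, under 2-fold from end to end. Irf7, the factor that amplifies interferon production, read 424.4 on OP9, 14.2 on OP9-GFP and 31.6 on OP9-DL, 29.9-fold and 13.4-fold higher. Other transcription factors of interferon signalling were higher as well, Stat2 at 355.0, 31.6 and 72.5 and Irf9 at 240.4, 44.2 and 80.5. Irf1, which also answers interferon gamma, read 231.0, 54.2 and 34.7. For both Stat2 and Irf9 the OP9-DL array lay between the others. Irf3, the factor that sensors activate directly, read 243.3, 244.9 and 297.3, and the kinase gene Jak1 read 410.4, 305.4 and 356.4.

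Antiviral effectors were higher in 21 of 34 genes and lower in 0, with median differences of 2.24 against OP9-GFP and 1.93 against OP9-DL on the log2 scale. Ifit3, which binds foreign RNA ends with its partners, read 269.5 on OP9, 5.4 on OP9-GFP and 10.6 on OP9-DL, 49.9-fold and 25.4-fold higher. The fold of 49.9 rests on an OP9-GFP value under the brightness limit. Ifi44, an interferon-induced cytoplasmic protein, read 324.4, 12.1 and 2.5, the largest nearer fold on the higher side at 26.8. Here the OP9-DL value was under the brightness limit, so the fold of 130 against it rests on a dim feature. The 2'-5' oligoadenylate synthetases, which start RNA decay, were higher together, with Oas2 at 295.7, 7.9 and 12.6, Oas1a at 1299.0, 64.6 and 138.0, and Oas1c at 50.6, 5.1 and 6.8. Bst2, tetherin, which holds budding virus at the membrane, read 3537.2, 335.4 and 359.6, and Ifitm3, which blocks entry from endosomes, read 6071.5, 1311.2 and 1174.3. These last features were bright on all 3 arrays.

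Several effectors did not follow. Mx2 was higher at 39.8 on OP9, 2.7 on OP9-GFP and 2.2 on OP9-DL, while its paralogue Mx1 read 6.6, 8.2 and 7.9. Rsad2, viperin, read 61.8, 43.9 and 53.4, and Samhd1, a nucleotide hydrolase that limits retroviruses, read 1136.8, 841.9 and 879.2. Ifitm2 was nearer to the limit at 1227.6, 712.5 and 659.0. Thus 13 of the 34 compared effectors were within the limit on at least 1 side.

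Modifiers of the response were higher in 13 of 15 genes. Usp18, which removes ISG15 and damps interferon signalling, read 968.5 on OP9, 45.2 on OP9-GFP and 71.2 on OP9-DL, 21.4-fold and 13.6-fold higher. Trim30a read 150.5, 10.4 and 7.7, and Trim25, the ligase that activates RIG-I, read 380.8, 38.6 and 82.2. The ADP-ribosyl transferases Parp9 and Parp14 and the ligase partner of Parp9, Dtx3l, read 240.1, 16.4 and 23.1, then 205.2, 22.8 and 20.5, then 160.8, 14.5 and 14.0. These 3 genes are neighbours on chromosome 16 and had like folds. Uba7, the enzyme that activates ISG15, and Trim34a were the genes not apart, with Uba7 at 14.2, 14.5 and 16.6.

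GTPases that attack the vacuoles of intracellular microbes were higher in 6 of 7 genes. Gbp4 was higher by both features, one at 88.6 on OP9, 5.0 on OP9-GFP and 4.4 on OP9-DL and the other at 37.4, 4.4 and 2.7. Iigp1 read 460.4, 42.9 and 37.5, and Gbp2 read 97.3, 14.0 and 7.2. Irgm1, which regulates the other GTPases, was the member nearest to the limit at 640.9, 175.9 and 317.3, a 2.02-fold difference from OP9-DL that fell under 2-fold with quantile or median scaling. Gbp5 was not apart, at 40.6, 44.5 and 46.9.

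Antigen presentation followed, with 11 of 15 genes higher and 0 lower. The inducible subunits of the immunoproteasome were highest: Psmb8 read 1449.2 on OP9, 112.2 on OP9-GFP and 13.3 on OP9-DL, Psmb9 read 384.9, 35.9 and 27.4, and Psmb10 read 801.2, 79.0 and 49.7. Peptide transport and loading came next, with Tap2 at 337.4, 47.0 and 52.3 and Tapbp, tapasin, at 307.7, 46.7 and 64.5. B2m, the light chain of every class I molecule, was 2.13-fold and 2.17-fold higher, at 15601.7, 7336.5 and 7175.7. The genes named so far belong to the class I route. Cd1d1, a member of the list outside the class I peptide route, was also higher at 49.2, 19.3 and 1.3, the last under the brightness limit. Genes of the class II route were not apart, with Ciita, its master regulator, at 24.8, 33.6 and 25.2 and H2-Aa at 16.1, 17.1 and 19.2.

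**Figure D2:**
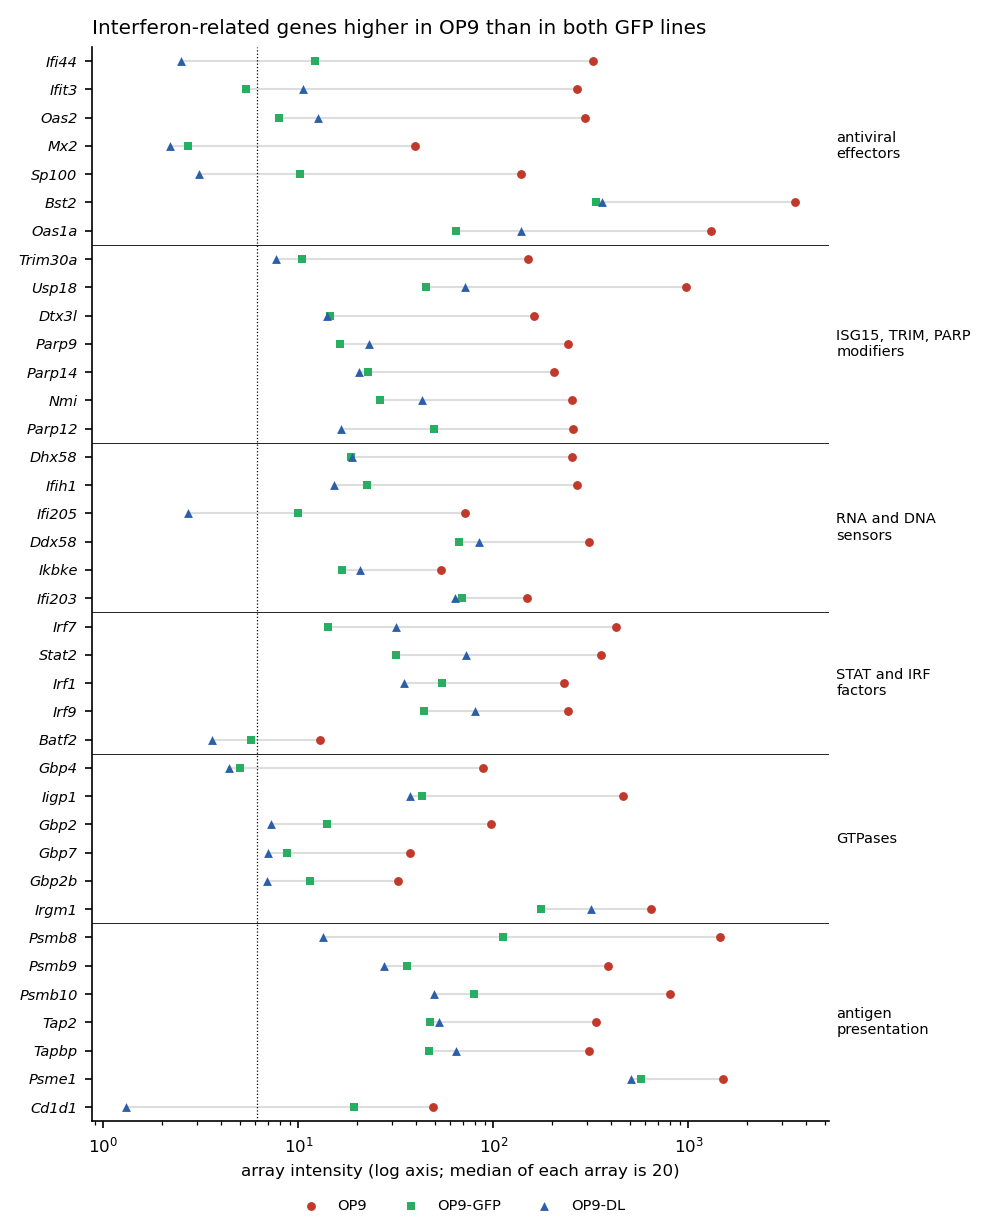
Intensity of interferon-related genes on the OP9 (circle), OP9-GFP (square) and OP9-DL (triangle) arrays on a log axis, up to 7 genes per group by the nearer fold; the dotted line is the brightness limit of 6.13. In every gene shown the OP9 array lies to the right of both others, and for Ifi44, Psmb8, Ifi205 and Cd1d1 the GFP-carrying arrays also lie far from each other.

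The interferon-stimulated response element (ISRE) is the sequence that the STAT2 and IRF9 complex binds, and it was looked for as the core letters GAAANNGAAA on both strands of RefSeq promoter windows (GRCm38.p6, 250 bases before to 50 after the annotated start). The sites are shown for members described above and for Edn1, the gene with the largest difference on the lower side, because a match is not particular to the interferon genes. Capitals mark the core or its reverse complement, and each sequence is written along the gene.
Ifit3: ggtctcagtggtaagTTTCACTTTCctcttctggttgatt
Bst2: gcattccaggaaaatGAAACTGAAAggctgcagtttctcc
Gbp2: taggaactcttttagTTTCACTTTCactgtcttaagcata
Stat2: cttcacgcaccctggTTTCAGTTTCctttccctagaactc
Oas1c: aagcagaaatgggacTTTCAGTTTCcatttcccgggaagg
B2m: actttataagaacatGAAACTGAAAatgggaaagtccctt
Edn1: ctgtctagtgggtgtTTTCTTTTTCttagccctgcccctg

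These stretches lie at chr19:34583358-34583397 (plus strand) for Ifit3, chr8:71537572-71537611 (minus) for Bst2, chr3:142620589-142620628 (plus) for Gbp2, chr10:128270261-128270300 (plus) for Stat2, chr5:120812604-120812643 (minus) for Oas1c, chr2:122147533-122147572 (plus) for B2m and chr13:42301383-42301422 (plus) for Edn1. Their cores begin 156, 124, 59, 222, 114, 139 and 78 bases before the start, in that order. A window was held for 9160 of the 11359 genes. The core was in the windows of 22 of 45 interferon-list genes that were higher (48.9%), 11 of 39 genes of these lists that were not apart (28.2%), 18 of 313 other higher genes (5.75%) and 9 of 209 lower genes (4.31%). Over all compared genes it was in 335 (3.66%), and over all windows of the table in 3.44%. The gamma-activated site, TTCNNNGAA, was in 12.0% of the higher genes, 8.13% of the lower ones and 8.34% of all compared genes, and it overlapped an ISRE core in 4 higher genes. A match is a description of letters, and no match says nothing of the factor.

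Some higher genes stood side by side. In the order of compared genes along chromosomes, 80 of 457 placed higher genes (17.5%) were next to another higher gene, and 7.8% of all 11314 placed genes were next to one. Of these 80 genes 23 were on the interferon-related lists and 57 were not. The split depends on what the lists hold: Ccl5, Ly6e and Casp4 are among the 57, and their link to interferon was not tested. The longest runs held 4 genes, Psmb9, Tap1, Psmb8 and Tap2 on chromosome 17 and Oas2, Oas1c, Oas1b and Oas1a on chromosome 5. The Oas, Gbp and Ly6 families hold near-identical copies, and the values of single members are uncertain to that extent. Among the lower genes 18 of 264 (6.82%) were beside another, against 4.60% of all placed genes, with Ccl2 beside Ccl7 and H19 beside Igf2.

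Cytokines and chemokines stood apart in both directions. Of 17 chemokine genes 3 (17.6%) were higher and 2 (11.8%) lower, beside 4.03% and 2.33% of all genes. Of 26 cytokine and inflammation genes 5 (19.2%) were higher and 1 (3.85%) lower. These are counts over few genes. Ccl5, which draws T cells, read 749.6 on OP9, 46.0 on OP9-GFP and 105.1 on OP9-DL. Ccl2 and Ccl7, which draw monocytes, went the other way, Ccl2 at 298.6, 1831.2 and 789.3 and Ccl7 at 230.0, 1100.8 and 476.7, with OP9-GFP the highest array for both. Il18, an inflammasome product, read 284.5, 18 and 36.7, and Il15, a survival factor for natural killer cells, read 42.2, 7.6 and 8.2. Tnfsf11, which encodes the osteoclast factor RANKL, was higher at 332.9, 66.7 and 22.4, while its decoy receptor Tnfrsf11b was lower at 308.5, 1047.3 and 1252.9. Ligand and decoy thus stood apart in opposite directions. Ltc4s, leukotriene C4 synthase, was 19.7-fold and 39.3-fold higher at 408.3, 20.7 and 10.4, and Ptgs2, the inducible cyclooxygenase, was lower at 13.9, 88.7 and 38.4.

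On the lower side several contractile genes were far apart. Of 32 smooth muscle genes 6 (18.8%) were lower in OP9 and 0 higher, beside 2.33% and 4.03% of all genes. Their median log2 differences were -0.62 against OP9-GFP and -0.57 against OP9-DL. Acta2, smooth muscle actin, read 4435.6 on OP9, 27256.5 on OP9-GFP and 27654.6 on OP9-DL. Tagln, transgelin, read 362.3, 7468.5 and 4078.6, and Actg2, the enteric smooth muscle actin, read 164.9, 2926.1 and 1943.3. Cnn1, calponin, was dim on OP9 at 4.6 and read 181.2 and 35.7 on the others, so its folds of 39.4 and 7.76 rest on a value under the limit. Mcam, an adhesion molecule of vessel walls, read 17.1, 103.9 and 111.0. The summed intensity of the 37 genes of the list with a value on all 3 arrays was 18389.1 on OP9, 60777.2 on OP9-GFP and 53718.9 on OP9-DL. Bright genes such as Acta2 weigh most in this sum, and 26 of the 32 compared genes were not apart. Myh11, the myosin that defines mature smooth muscle, was below the limit at 4.2, 4.7 and 4.8, and Des read 12.6, 7.4 and 21.6.

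Targets of YAP and TGF-beta were lower in 7 of 39 genes (17.9%) and higher in 3 (7.69%), beside 2.33% and 4.03% of all genes. Edn1, the vasoconstrictor endothelin 1, read 2.3 on OP9, 112.2 on OP9-GFP and 71.7 on OP9-DL, 48.8-fold and 31.2-fold lower in OP9, where it was under the brightness limit. Ccn2, the matricellular growth factor CTGF, read 256.2, 3524.2 and 2884.3, and Ankrd1, an ankyrin repeat protein of stretched muscle, read 18.4, 379.0 and 144.8. Both are standard YAP readouts, and so is Ccn1, which read 450.8, 1668.8 and 1217.1. Smad7, the inhibitor that TGF-beta induces, was lower at 110.2, 261.5 and 270.9, as was Tead2, a DNA-binding partner of YAP, at 3.4, 15.8 and 14.5. Yap1 itself read 26.0, 26.2 and 19. The 3 higher in OP9 were Tgfbi at 144.4, 47.2 and 8.2, Ltbp2 at 62.3, 21.0 and 22.1, and Tgfbr3 at 17.4, 8.7 and 5.6. Ltbp2 was apart by 1 of its 2 features. The ligands were not apart, with Tgfb1 at 16.7, 20.1 and 10.1 and Tgfb2 at 166.1, 114.5 and 137.3.

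A list of actin cytoskeleton genes, written after the values were seen, had 17 of 66 genes (25.8%) lower and 2 (3.03%) higher. Over all genes 2.33% were lower and 4.03% higher. Aif1l, an actin-bundling protein, read 3.8 on OP9, 82.7 on OP9-GFP and 115.3 on OP9-DL. Acta1, skeletal actin, read 7.5, 50.7 and 226.0, and Tmsb4x, which sequesters actin monomers, read 4618.4, 14784.3 and 13521.8. Of the higher ones, Plec is uncertain, since one feature read 328.4, 44.0 and 84.7 and the other 38.5, 54.4 and 71.8. The CArG box, the site of serum response factor, was found in the windows of 10 of 209 lower genes (4.78%), 4 of 358 higher genes (1.12%) and 147 of 9160 compared genes (1.60%). Among lower genes on the contractile, YAP and actin lists it was in 2 of 24 (8.33%), both on the actin list. Of the lower genes on none of these lists it was in 8 of 185 (4.32%). In members of the actin list these sites are shown, with the box in capitals, for Acta1 at chr8:123894824-123894863 (minus) and Filip1l, a filamin-interacting protein gene, at chr16:57549165-57549204 (plus), 73 and 62 bases before the start.
Acta1: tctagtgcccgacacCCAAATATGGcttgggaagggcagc
Filip1l: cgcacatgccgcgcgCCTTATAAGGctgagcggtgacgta

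The letters GGAATG, to which TEAD factors bind, were in 9 of 24 windows of lower genes on the contractile, YAP and actin lists (37.5%), 43 of 209 lower genes (20.6%), 56 of 358 higher genes (15.6%) and 14.4% of all compared genes. These are counts over few genes, and no test was run on them.

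Immediate early genes, which respond within minutes to growth factors, were lower in 7 of 28 and higher in 0. Jun read 66.5 on OP9, 219.5 on OP9-GFP and 286.6 on OP9-DL, Dusp1, a phosphatase that turns off MAP kinases, read 91.3, 370.5 and 336.7, and Myc read 113.9, 313.2 and 351.4. Genes of DNA replication were lower in 7 of 49 (14.3%) and higher in 0, with median log2 differences of -0.84 against OP9-GFP and -0.44 against OP9-DL. Among them were Pole2, a polymerase epsilon subunit, at 113.9, 293.3 and 271.7 and Rrm2, which supplies deoxynucleotides, at 559.0, 1285.6 and 1756.7. For the 7 lower replication genes the nearer folds lay between 2.12 and 2.39. On the mitosis list 0 of 36 genes were apart, with median differences of -0.52 and -0.06. That list does not hold every mitosis gene, and Kif18a and Cdca8, which are not on it, were among the lower genes. Cdkn1c, the cell cycle inhibitor p57, was higher at 41.8, 4.7 and 3.2.

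Ribosome biogenesis, a list also written after the values were seen, had 11 of 80 genes (13.8%) lower and 0 higher, beside 2.33% and 4.03% of all genes. Of the 80, 69 read below both other arrays by any amount, where 4428 of all 11359 genes did. Nop58, a core protein of box C/D particles, read 663.3 on OP9, 1801.5 on OP9-GFP and 1421.2 on OP9-DL, and Dis3, the exosome nuclease, read 301.6, 916.2 and 826.4. No ribosomal protein gene was apart, 0 of 57.

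**Figure D3:**
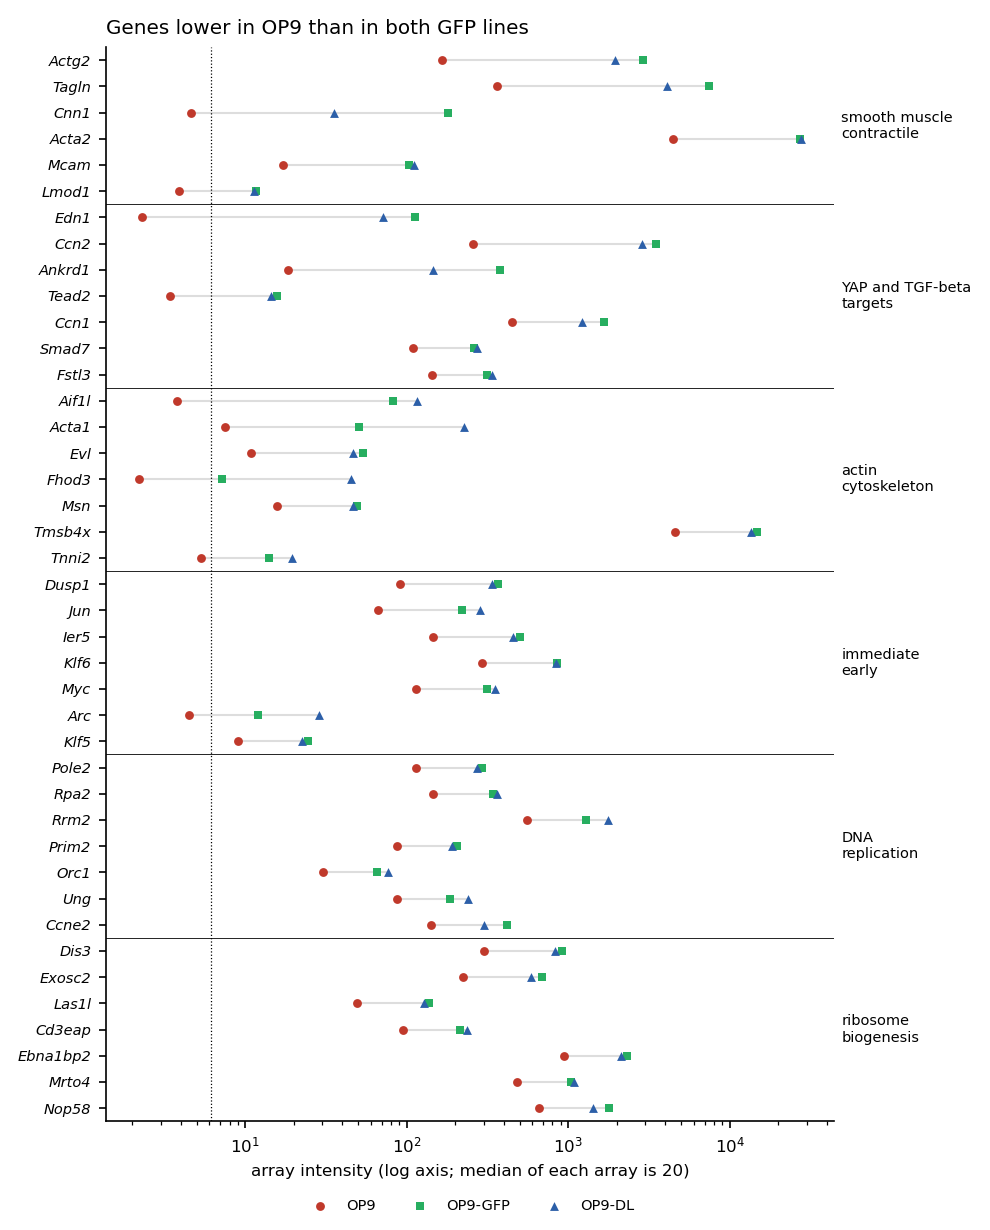
Intensity of lower genes on the OP9 (circle), OP9-GFP (square) and OP9-DL (triangle) arrays on a log axis, up to 7 genes per group by the nearer fold; the dotted line is the brightness limit of 6.13. OP9 lies to the left of both others in every gene shown, by far in Edn1, Aif1l and Tagln and by a nearer fold under 3 in the replication and ribosome biogenesis genes.

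Many oxidation genes were higher in OP9. A list of fatty acid and branched-chain amino acid oxidation genes, written after the values were seen, had 20 of 56 genes (35.7%) higher and 0 lower. Over all genes 4.03% were higher and 2.33% lower. The list's median log2 differences were 0.98 and 0.82. Acadvl, the first dehydrogenase for very long chains, read 1266.4 on OP9, 390.8 on OP9-GFP and 371.8 on OP9-DL. Ech1, an enoyl-CoA isomerase, read 1308.4, 252.4 and 447.9, and Cpt2, which restores acyl-CoA inside the mitochondrion, read 312.5, 128.9 and 151.9. Of the branched-chain route, Bckdhb and Dbt, subunits of the ketoacid dehydrogenase, read 521.8, 248.2 and 242.5 and then 120.7, 55.2 and 35.3. Both subunits of propionyl-CoA carboxylase were higher, Pcca at 190.8, 84.3 and 73.6 and Pccb at 171.7, 62.8 and 66.6. All nearer folds of the 20 lay between 2.0 and 3.24, and Acadm, for medium chains, missed the limit at 2821.5, 1413.4 and 1639.4.

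Lysosomal enzymes and transporters, a list of the same origin, had 14 of 53 genes (26.4%) higher and 0 lower, with medians of 0.90 and 0.72. Over all genes 4.03% were higher and 2.33% lower. Gaa, which degrades glycogen, read 471.6 on OP9, 194.3 on OP9-GFP and 151.6 on OP9-DL. Idua, which cuts glycosaminoglycans, read 52.8, 13.5 and 20.4, and Smpd1, acid sphingomyelinase, read 130.3, 57.4 and 51.9. The cilium list, also written afterwards, had 8 of 46 genes (17.4%) higher and 0 lower. Ift122 of the transport train read 399.7, 114.2 and 128.3, and Bbs2 of the BBSome read 50.4, 16.6 and 14.5.

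Growth factors, receptors and matrix genes stood apart on both sides. Of 37 growth factor genes 4 (10.8%) were higher and 6 (16.2%) lower, beside 4.03% and 2.33% of all genes. Igfbp4, which binds insulin-like growth factors, read 1318.9 on OP9, 141.2 on OP9-GFP and 145.9 on OP9-DL, and Pdgfra, the receptor that marks mesenchymal progenitors, read 800.6, 166.1 and 127.1. Fgfr2, a fibroblast growth factor receptor, was lower at 3.4, 22.5 and 27.6, and so was Hbegf, an EGF receptor ligand, at 64.0, 228.0 and 212.7. Of 43 matrix glycoproteins and proteoglycans 6 (14.0%) were higher and 4 (9.3%) lower. Thbs2, an inhibitor of vessel growth, read 2718.0, 414.0 and 402.0, and Spp1, osteopontin, read 26149.4, 5610.9 and 6877.5. Tnc, tenascin C, was lower at 9.0, 159.6 and 59.5, and Fbln5, an organiser of elastic fibres, at 20.2, 180.4 and 328.6. Collagens were lower in 3 of 27 (11.1%), a count over few genes, with Col5a3 at 77.4, 351.4 and 249.2. Col1a1, the main chain of type I collagen, was lower at 269.3, 712.9 and 557.0, while its partner Col1a2 read 6612.6, 5922.4 and 5145.3.

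Genes of fat, steroid metabolism and imprinted loci stood apart in both directions, and bone genes were near the shares of all genes. Adipoq, the fat hormone adiponectin, read 29.0 on OP9, 495.9 on OP9-GFP and 146.7 on OP9-DL, and Lpl, lipoprotein lipase, went the other way at 1854.9, 682.6 and 422.1. In all, 3 of 31 adipocyte genes (9.68%) were higher and 2 (6.45%) lower, beside 4.03% and 2.33% of all genes. Of 20 osteoblast and cartilage genes 1 (5.0%) was higher and 1 (5.0%) lower, which adds little about OP9. Of 22 steroid and aldo-keto metabolism genes 5 (22.7%) were higher and 3 (13.6%) lower. Hsd11b1, which regenerates active glucocorticoid, read 19.5, 210.4 and 1019.9, and Aldh3a1, an aldehyde dehydrogenase, read 496.9, 58.6 and 119.2. For Hsd11b1 the GFP-carrying lines differed from each other by more than 2-fold, so 3 levels were seen. Of 15 imprinted growth genes 3 (20.0%) were higher and 3 (20.0%) lower. The higher ones were Cdkn1c, Sgce at 848.1, 239.9 and 152.9, and Snrpn at 247.3, 42.4 and 104.0. The lower ones were Plagl1, a growth-restraining zinc finger factor, at 7.5, 18.6 and 105.3, and the chromosome 7 neighbours H19 at 13.8, 40.3 and 167.6 and Igf2 at 4.7, 14.8 and 16.2. All 3 lower genes were highest on OP9-DL. Notch pathway genes were lower in 2 of 29 (6.9%) and higher in 0. Hes1, a direct Notch target, read 55.9, 176.9 and 112.3, which fell under 2-fold against OP9-DL with a constant of 2 added.

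**Figure D4:**
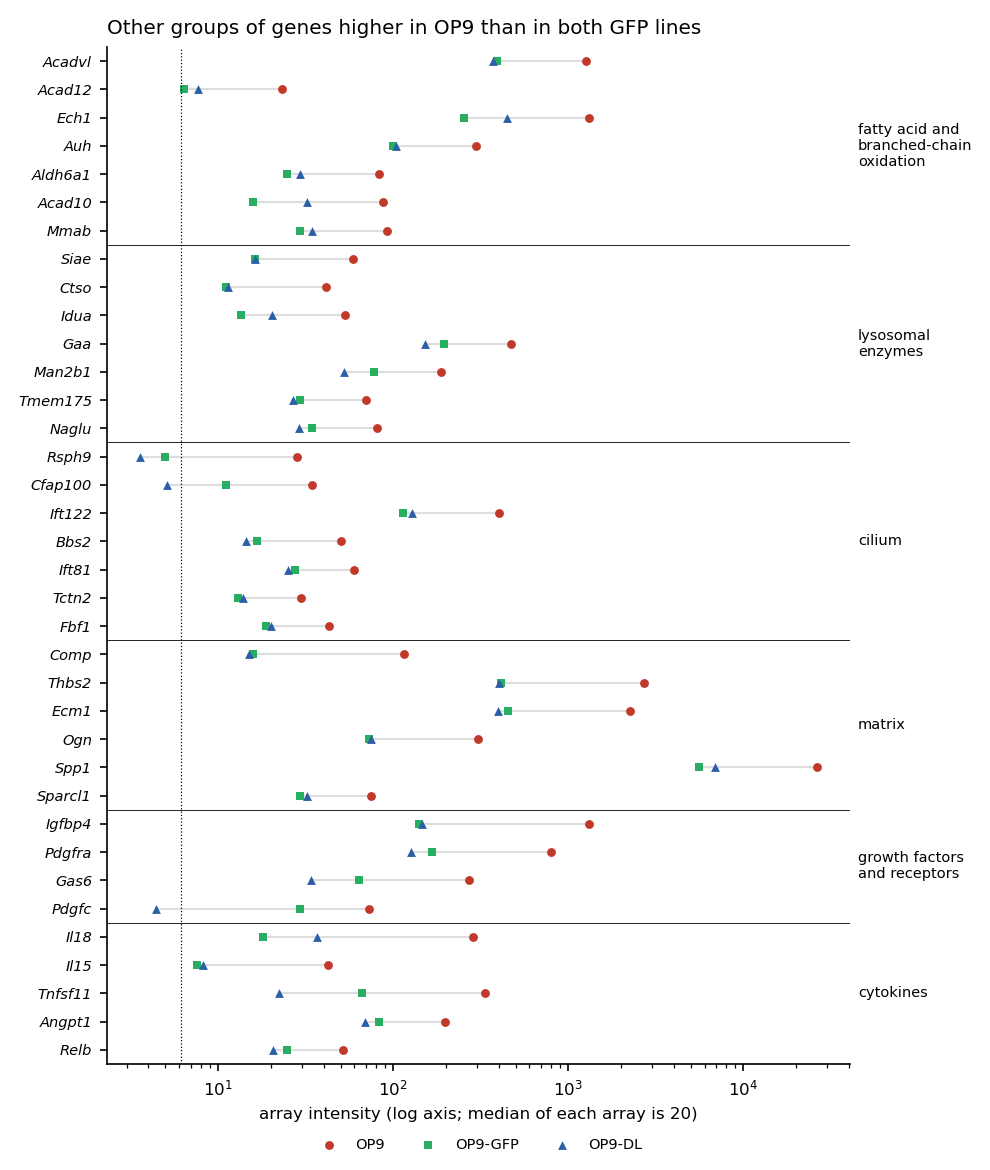
Intensity of higher genes of other groups on the OP9 (circle), OP9-GFP (square) and OP9-DL (triangle) arrays on a log axis, up to 7 genes per group by the nearer fold; the dotted line is the brightness limit of 6.13. OP9 lies to the right of both others, with Igfbp4 and Il18 farthest and the oxidation and lysosomal genes at modest distance.

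Of all members, 297 of the 458 higher and 162 of the 265 lower were on no list, as were 7 of the 25 leading higher genes and 10 of the 25 leading lower ones. Over the 9858 genes on no list 3.01% were higher and 1.64% lower. Among the higher ones, Casp4, the caspase that senses bacterial lipopolysaccharide, read 201.0 on OP9, 15 on OP9-GFP and 7.3 on OP9-DL. Its chromosome 9 neighbour Casp12 read 101.4, 27.2 and 12.8. Genes of the Ly6 family of surface proteins were higher together on chromosome 15, with Ly6c1 at 12267.6, 974.9 and 751.2 and Ly6e at 1643.8, 169.6 and 30.4. Rnf213, a large ubiquitin ligase, read 1240.2, 110.4 and 120.8, and Xdh, which makes uric acid, read 562.2, 59.4 and 34.4. Khk, fructokinase, read 127.6, 9.7 and 11.3. The feature named Mgl1 on the array read 71.9, 3.0 and 2.6, with both GFP-carrying arrays under the limit. Among the lower ones, Opn3, an opsin, read 7.3, 69.4 and 57.8, and Prdm16, a regulator of brown fat, read 13.4, 107.9 and 85.0.

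**Figure D5:**
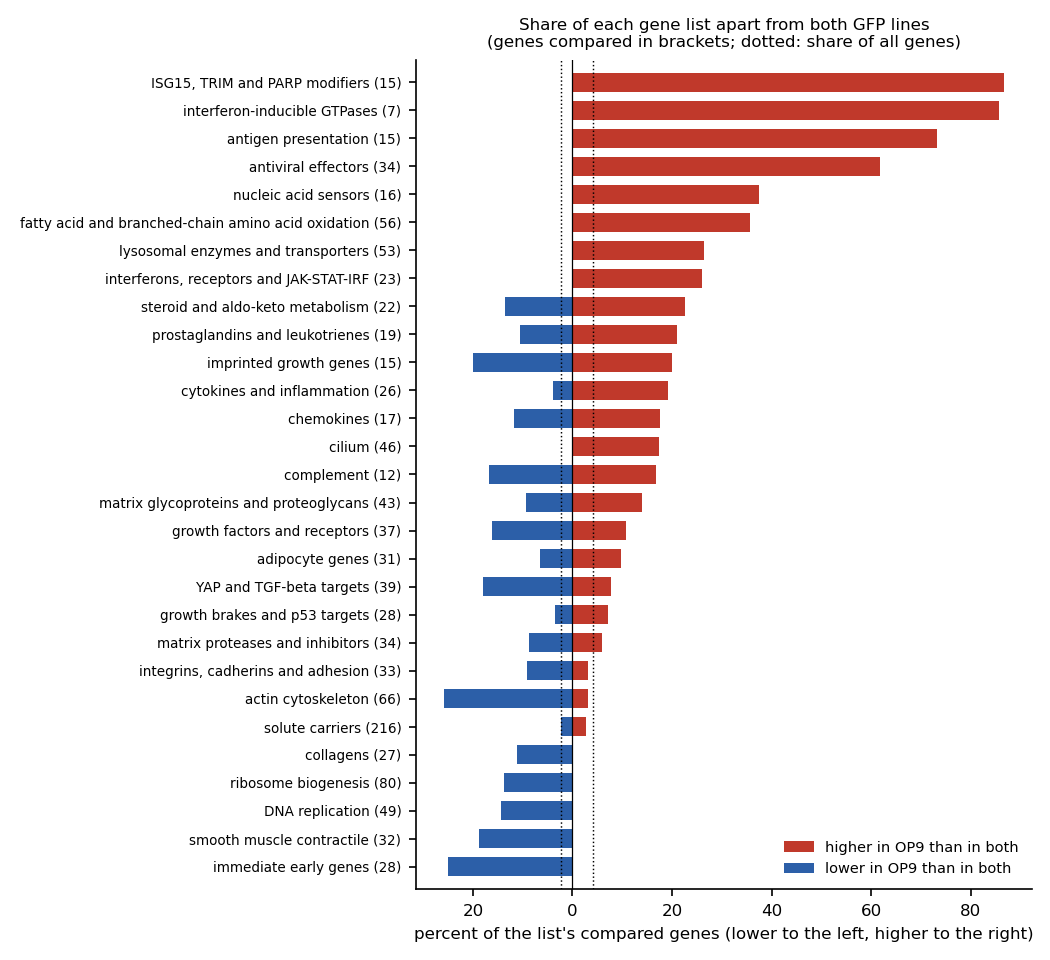
Share of each list's compared genes that were at least 2-fold higher (right, red) or lower (left, blue) in OP9 than in both GFP-carrying lines, for lists with more than 2 such genes, with the compared number in brackets; dotted lines mark 4.03% and 2.33%, the shares of all genes. Interferon-related lists reach from 26.1% to 86.7% on the right, and actin cytoskeleton and immediate early genes reach 25.8% and 25% on the left. The actin, oxidation, lysosomal, cilium and ribosome biogenesis lists were written after the values were seen. The other lists were chosen with earlier results of these data known.

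Lists near the background add little about OP9. Of 216 solute carriers 6 (2.78%) were higher and 5 (2.31%) lower, beside 4.03% and 2.33% of all genes. Of 35 heat shock and NRF2 genes 1 (2.86%) was higher and 1 (2.86%) lower. Of 14 members with several compared features, all features were apart in 4 and all had the same sign in 11. Just inside the limit on the higher side stood Cmc1 at 923.9 on OP9, 461.1 on OP9-GFP and 415.4 on OP9-DL, and just outside it Mrps6 at 3197.2, 1600.9 and 1561.8. On the lower side Ghr, the growth hormone receptor, was just inside at 71.0, 144.9 and 142.1 and Cdc25a, a cell cycle phosphatase, just outside at 55.9, 111.7 and 120.0. Genes on either side of the limit thus differed by hardly anything.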

How the data were processed

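Total RNA of the 3 lines was amplified to amino allyl RNA and coupled to Cy5, per the labels' protocols. The deposited values are linear probe intensity, which the authors scaled to a median of 20 on each array, as the values show. The sources used here do not state the scanner, the background correction or the rule for blanks. Of 23473 features, 20775 had a value on all 3 arrays, and 15581 were compared, those whose mean log2 reached the 25th percentile of 2.62, which is an intensity of 6.13, with no further scaling and no added constant. Features were named by the platform's gene table (16631 with 1 symbol, 6842 with none), and symbols were updated through RefSeq of GRCm38.p6: 12622 were current, 3947 were renamed and 62 were kept.

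A gene counted when any of its features was 2-fold apart from both other arrays. The members and the 42 gene lists were chosen with earlier results of these data known, and 5 further lists were written after the values were seen. Named genes were the 25 highest and 25 lowest by the nearer fold, up to 8 each way per list, the gene nearest to 0 in each list, 5 genes on each side of the limit, and Csf1, Dll1, Ifnb1, Ifnar1 and Ifnar2. Others were chosen after their values were seen. Alternatives were other scalings, filters, thresholds, a constant of 2 before log2, blanks at the lowest value, and the mean or brightest feature of a gene. The procedure was checked on simulated data, with planted shifts larger than the 2-fold limit in brighter features and small, even noise. That check does not reach calls near the limit, dim features or differences between arrays. Promoter windows are RefSeq's. Software was pandas 2.3.3 and numpy 2.4.6 on Python 3.11.15, with statsmodels 0.14.6 for lowess and matplotlib 3.10.9 for figures.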

Additional observations from a re-analysis of the deposited data

Results flagged for a closer look

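Some features had a value on the OP9 array but a blank on another, so they were outside the comparison. Syce2, a meiotic chromosome protein, read 96.3 on OP9 and 11.7 on OP9-GFP and was blank on OP9-DL. Gbp6, an interferon-inducible GTPase, read 23.5 on OP9 and 4.2 on OP9-DL and was blank on OP9-GFP. Aspn, a small matrix proteoglycan, was blank on OP9 and read 11.5 on OP9-GFP and 9.1 on OP9-DL. In all, 312 features had a value on OP9 alone, with a median of 1.5 and 5 at or above the brightness limit, and 398 were blank on OP9 alone, 2 of them at or above the limit on both other arrays.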

How the results depend on the processing

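With 1 array per line nothing could be left out, and no test or interval was possible. No paired analysis was possible because each line has 1 array and the labels give no replicate numbers. The threshold moved the counts: at 1.5-fold 1208 genes were higher and 866 lower, with 26 smooth muscle, YAP and TGF-beta genes lower, and at 3-fold 170 were higher and 65 lower, with 44 interferon-related genes higher and 9 of the smooth muscle, YAP and TGF-beta genes lower. Across the other settings 332 to 532 genes were higher and 189 to 345 lower, with 46 to 64 interferon-related genes higher. Quantile scaling kept 416 of the 458 higher genes and 257 of the 265 lower ones, and a constant of 2 added before log2 kept 426 and 221. The split of higher to lower calls stayed between 58.2% and 72.3% higher. Of 2607 values of named genes under the alternatives, 58 fell under the limit, 16 passed it and 0 changed sign. Of 882 list medians 3 changed sign, all for 7 dim mast cell markers: -0.34 against OP9-GFP became 0.14 without a filter and 0.62 with one at the 50th percentile, and -0.45 against OP9-DL became 0.04 without a filter. Dim features, under an intensity of 6.13, limit the size of the largest folds.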

Other observations

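Other regulators and signalling genes stood apart without belonging to a list, and the ones below were picked with their values in view. Trp63, an epithelial transcription factor of the p53 family, read 65.5 on OP9, 8.8 on OP9-GFP and 4.6 on OP9-DL. Trem2, a lipid receptor of macrophages and osteoclasts, read 530.1, 28.6 and 77.7, while its adaptor gene Tyrobp read 9.3, 11.7 and 13.9. Mt1, a metallothionein, read 1627.7, 357.2 and 278.2, and Pdcd4, which restrains translation, read 268.3, 34.0 and 54.7. On the lower side, Odc1, the first enzyme of polyamine synthesis and a known Myc target, read 258.7, 930.8 and 1028.9, and Tnfrsf12a, the TWEAK receptor, read 1521.4, 4213.8 and 4579.8. Rgs4, a brake on G protein signalling, read 20.2, 104.3 and 120.4.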
